A study of Rattus norvegicus with 18 samples.

Results

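The 8 genes described here encode the enzymes that make serine from a glycolytic intermediate and those that pass its side-chain carbon to folate. They were listed by name, but with earlier results of these data known. Every probe set that the array's annotation assigns to exactly 1 of Phgdh, Psat1, Psph, Shmt1, Shmt2, Mthfd2, Mthfd1l and Aldh1l2 was taken. Each gene had 1 such probe set, so the group held 8 of the 14217 genes that a probe set on the array names uniquely. RNA came from clone #4S2, a line derived from INS-1, a rat insulinoma line that secretes insulin. All cells, the controls included, carried the pTet-ON regulator and a pTRE-Tight construct for mouse insulin 2 with the C96Y change fused to EGFP, Ins2(C96Y)-EGFP. That change breaks a disulfide bond of proinsulin, so the protein misfolds in the endoplasmic reticulum (ER). Cultures received 2 µg/ml doxycycline, which switches the construct on, for 24 or 48 h or for 5 days, and the Control cultures of the same 3 times received none. There were 3 arrays in each of the 6 groups, 18 in all, and the study presents them as 3 independent experiments per time. The line is a single clone that was sorted for bright EGFP after induction. No array holds cells without the construct given the drug, so effects of doxycycline and of the mutant insulin cannot be told apart in these arrays. The study reports, without showing the data, that the same dose left mRNA and protein of Grp78 and Chop (Ddit3) unchanged in parental INS-1 cells. It reports no such control for the 8 genes described here.

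Serine synthesis starts from 3-phosphoglycerate. Phgdh oxidises it, Psat1 transfers an amino group from glutamate, and Psph removes the phosphate to give serine. A serine hydroxymethyltransferase, Shmt1 in the cytosol or Shmt2 in mitochondria, then splits serine into glycine and a one-carbon unit bound to tetrahydrofolate. In mitochondria Mthfd2 oxidises that unit, Mthfd1l releases it as formate for export, and Aldh1l2 can instead burn it to carbon dioxide. In the cytosol Mthfd1 carries out the corresponding folate steps. The serine synthesis genes and the mitochondrial folate genes are known targets of ATF4, a transcription factor whose translation rises when the kinase PERK senses unfolded protein in the ER or when amino acids run short. Insulin-producing cells make large amounts of a disulfide-bonded protein, so they depend on these ER stress pathways.

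The labels were checked before the enzymes were read. Beta-cell markers were bright in all 18 arrays (Ins1 signal 17775 to 24703), and markers of acinar cells and fibroblasts were too dim to be tested. Of 4 genes of other islet hormones Gcg, the glucagon gene, alone was bright enough to test, and it fell at 48 h (log2 fold change -2.71, adjusted p = 0.00669 in limma); the summed signal of the 4 ran from 102 to 2453 in arrays labelled control and from 198 to 1208 in those labelled doxycycline, and its part in the results was not tested. The 2 rat insulin genes, which the cells express themselves, were called at no time. The labels were therefore checked with 7 ER chaperone and co-factor genes, Sdf2l1, Fkbp11, Dnajb9, Dnajc3, Dnajb11, Creld2 and Manf. The study lists all 7 as induced at each time, from these same arrays. Their rise is thus partly fixed by choice and is no separate evidence of induction. All 7 were higher with doxycycline in 8 of the 9 same-numbered pairs. In experiment 1 of the 5-day cultures 0 of the 7 were higher, and their median log2 ratio was -2.07, so this pair went against its labels. The ratios that the study lists for this pair also run opposite to those of the deposited arrays, while for the other pairs they run the same way. Whether the labels of its arrays were exchanged at deposit is therefore in doubt; the arrays are called by their labels throughout, and the 5-day values are given both as labelled and with the labels of this pair exchanged. A different 5-day array, labelled doxycycline, experiment 2, gave 2.91 for the GAPDH 3′ probe set relative to the 5′ one, where the remaining 17 arrays gave 1.05 to 1.19, a sign of shortened RNA, and its median correlation with the other arrays was 0.930 against 0.953 to 0.964. The 5-day values below rest on both of these pairs and are given with and without them.

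Psat1, Psph, Shmt2 and Mthfd2 rose with doxycycline at 48 h, by 1.76 to 3.11-fold, whereas the cytosolic enzyme Shmt1 did not. Of the 8 genes, 6 were bright enough to be tested, and 4 of these 6 passed an adjusted p of 0.05 in the higher direction and 0 in the lower one (limma, 6 arrays of 48 h with the pair as a block). Over all 15521 probe sets tested at 48 h, 2.33% were called higher and 1.19% lower. The median log2 fold change of the 6 genes was 0.99, beside -0.01 for all probe sets tested. Values are signals normalized between arrays, in arbitrary units that compare arrays for 1 gene but not genes with each other. In RNA from whole cultures, fewer cells that express a gene and less of its RNA per cell cannot be told apart.

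**Figure D1:**
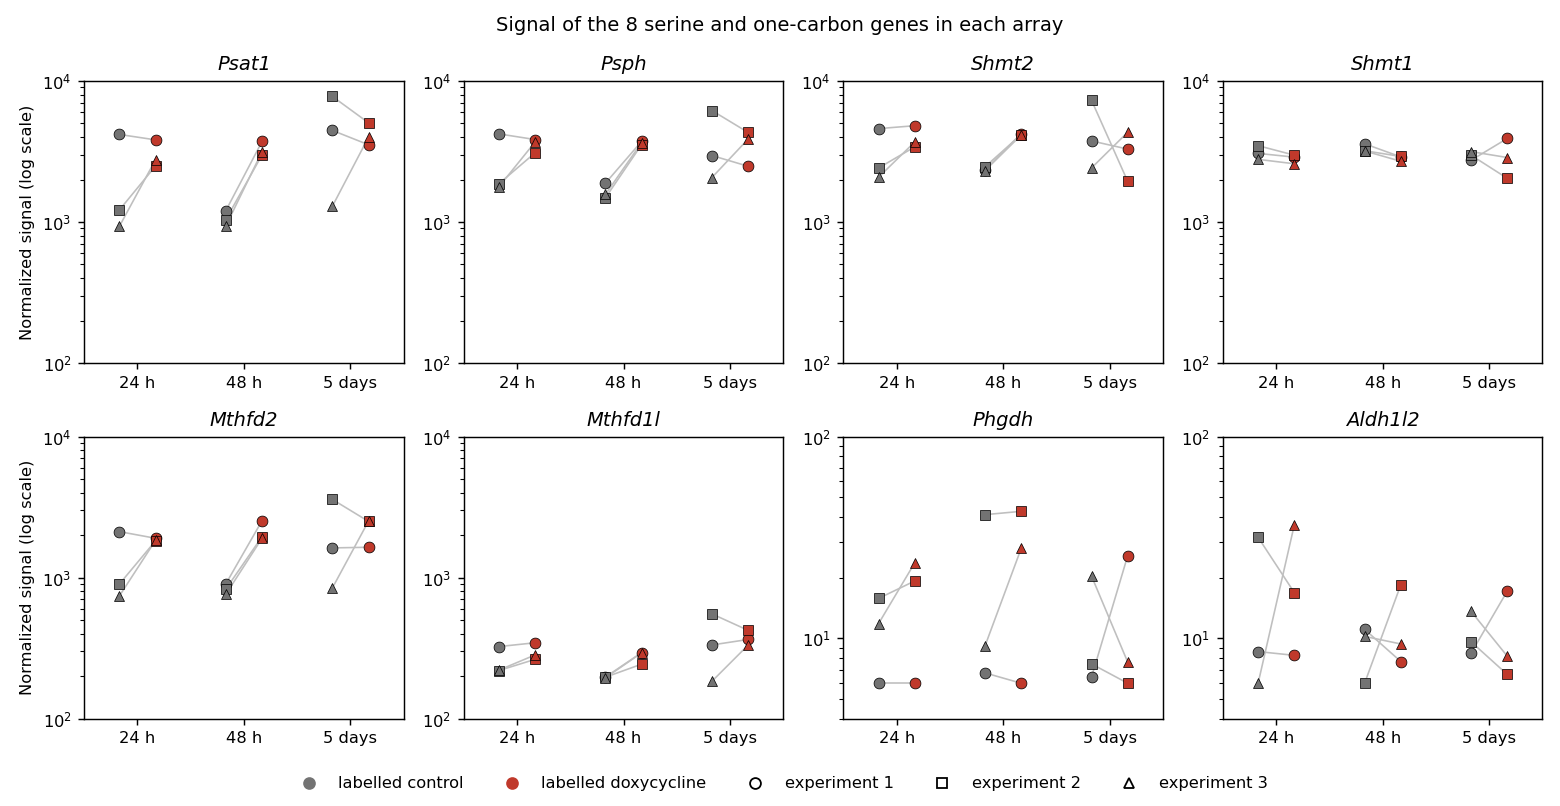
Normalized signal (arbitrary units, log axis) of each of the 8 genes in each of the 18 arrays, labelled control in grey and labelled doxycycline in red; marker shapes give the experiment and lines join same-numbered arrays. At 48 h the control and doxycycline arrays of Psat1 lie apart, at 939 to 1205 and at 2994 to 3732, while Phgdh and Aldh1l2, drawn on a lower axis, stay between 6 and 43 in all arrays.

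Among the serine synthesis enzymes, Psat1 changed most at 48 h. Its signals were 1205, 1042 and 939 in the control arrays and 3732, 2994 and 3161 in the doxycycline arrays of experiments 1, 2 and 3. The lowest doxycycline array was thus more than 2-fold above the highest control array. The ratio within pairs was 3.11-fold ± 0.247 (SD, n = 3), and the log2 fold change of 1.64 (SE 0.08) had an adjusted p of 0.00669 in limma. Psat1 ranked 17 by log2 fold change among the 15521 probe sets tested. Psph, the phosphatase that completes serine synthesis, read 1887, 1485 and 1573 in controls and 3737, 3547 and 3659 with doxycycline. The groups did not overlap, and all 3 doxycycline arrays lay close together. Its ratio was 2.23-fold ± 0.220 (SD, n = 3), a log2 fold change of 1.15 (SE 0.09) with an adjusted p of 0.0137 in limma. Phgdh, the first enzyme of the route, was at or near the floor: its signals ran from 6 to 43 over the 18 arrays, below the lowest mean signal tested of 121.5, so it has no test. At that signal the array does not tell whether the gene was expressed at a low level or whether its probe set failed to read it.

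Of the 2 hydroxymethyltransferases, the mitochondrial form rose and the cytosolic form did not. At 48 h the controls read 2344, 2465 and 2317 for Shmt2, and the doxycycline arrays 4240, 4171 and 4145. Its ratio was 1.76-fold ± 0.0623 (SD, n = 3), the tightest of the 4 genes that rose, with a log2 fold change of 0.82 (SE 0.07) and an adjusted p of 0.0176 in limma. Shmt1 read 3589, 3204 and 3193 in controls and 2897, 2919 and 2697 with doxycycline. All 3 doxycycline arrays were below all 3 controls, but the log2 fold change of -0.23 (95% interval -0.42 to -0.03) had an adjusted p of 0.157 in limma and was not called. Within pairs the log2 fold change of Shmt2 exceeded that of Shmt1 by 1.16, 0.89 and 1.08, a mean of 1.05 ± 0.14 (SD, n = 3). An exact two-sided permutation test over the 6 arrays gave p = 0.1 for this difference, the smallest that 3 against 3 arrays allow, and 0.3 after Benjamini-Hochberg adjustment over 6 comparisons of this kind.

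Of the mitochondrial folate enzymes, Mthfd2, the bifunctional dehydrogenase and cyclohydrolase, rose strongly at 48 h. It read 903, 829 and 762 in controls and 2534, 1952 and 1903 with doxycycline, with no overlap. The ratio was 2.55-fold ± 0.230 (SD, n = 3), with a log2 fold change of 1.35 (SE 0.08) and an adjusted p of 0.0102 in limma. Mthfd1l, the formate-releasing synthetase, read 197, 197 and 195 in controls and 294, 243 and 293 with doxycycline. The groups did not overlap, and the mean ratio was 1.41-fold ± 0.150 (SD, n = 3). Its log2 fold change of 0.49 (95% interval 0.26 to 0.72) missed the threshold, with an adjusted p of 0.0619 in limma, and passed it at 0.0176 when the 24 h and 48 h arrays were fitted together. In that joint fit of 12 arrays 5.64% of all probe sets were called higher at 48 h. Mthfd1, the cytosolic counterpart, was not among the 8 genes. It read 1306, 1175 and 1242 in controls and 1173, 1058 and 1114 with doxycycline, a log2 fold change of -0.15 with an adjusted p of 0.249 in limma. The log2 fold change of Mthfd2 exceeded that of Mthfd1 by 1.5 ± 0.13 (SD, n = 3; exact two-sided permutation p = 0.1, adjusted 0.3). This comparison too was chosen after values were seen, and its test set the pairing aside. Aldh1l2, the mitochondrial formyltetrahydrofolate dehydrogenase, ran from 6 to 36 over the 18 arrays and was not tested.

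By size alone, Psat1 and Mthfd2 were at least 2-fold higher with doxycycline in 3 of 3 pairs at 48 h, as were 0.277% of all probe sets tested. Psph reached that fold in 2 of its 3 pairs, a level that 0.509% of all probe sets reached or passed. For 5 of the 6 tested genes the doxycycline arrays all lay above the controls at 48 h, which held for 11.3% of all probe sets, and for Shmt1 they all lay below, which held for 10.8%. The sizes of these changes moved little with the processing, but the calls rested on all 3 pairs. The number of genes called higher was 0 without experiment 1, 2 without experiment 2 and 1 without experiment 3. Over all 15521 probe sets these fits called 0, 36 and 23 in either direction. The number of genes called was also 0 with dim probe sets kept in or with all 18 arrays in 1 fit. Those fits called 0 probe sets in all, as did the fit without experiment 1. A count of 0 there says nothing particular about these enzymes. The log2 fold changes of the 4 called genes stayed between 0.80 and 1.69 under every alternative run.

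**Figure D2:**
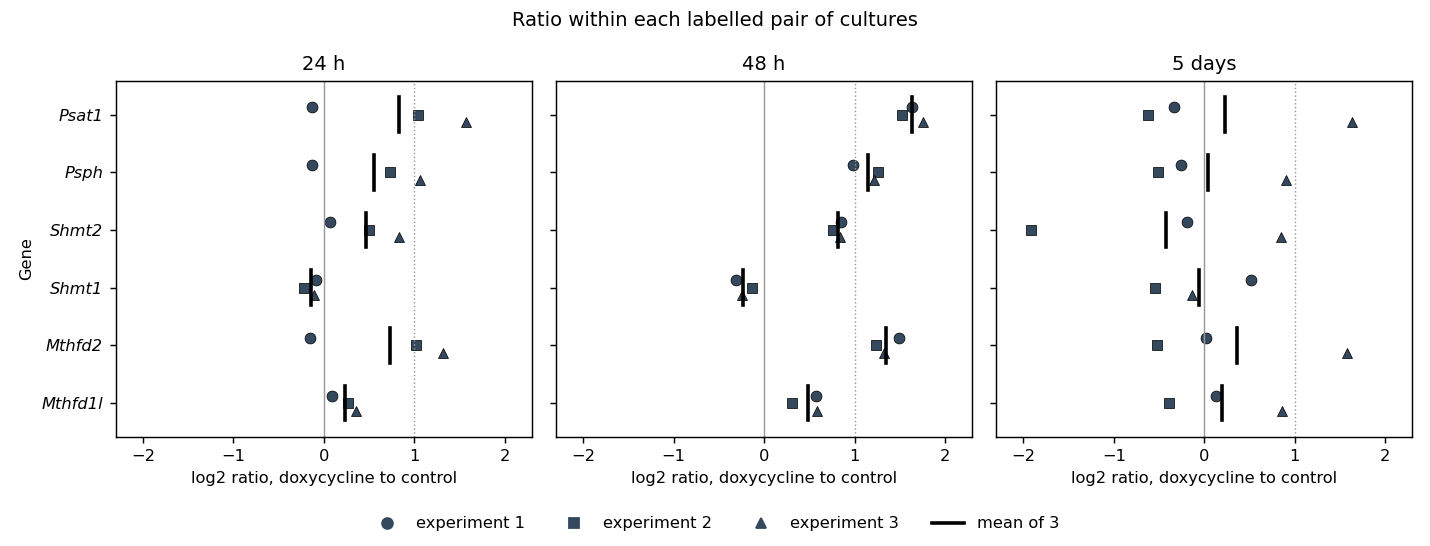
Log2 ratio of doxycycline to control within each labelled pair for the 6 tested genes at each of the 3 times (symbols, experiments 1 to 3; bar, mean of 3; dotted line, 2-fold). At 48 h the 3 pairs agree for each gene, with Psat1 between 1.52 and 1.75, whereas at 24 h experiment 1 sits near 0 and at 5 days the pairs fall on both sides of 0.

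At 24 h Psat1, Psph and Mthfd2 were higher in 2 of the 3 experiments and Shmt2 in all 3, and none passed the test. The 24 h controls read 4180, 1218 and 931 for Psat1, and the doxycycline arrays 3826, 2501 and 2772. The control of experiment 1 was above every doxycycline array, so the groups overlapped. The log2 ratios of Psat1 were -0.13, 1.04 and 1.57 in experiments 1, 2 and 3, and its fitted log2 fold change of 0.83 (SE 0.31) had an adjusted p of 0.319 in limma. Mthfd2 read 2119, 900 and 740 in controls and 1900, 1825 and 1839 with doxycycline. Its 3 doxycycline arrays differed little, and control 1 again stood above the other 2 controls. The log2 fold change of Mthfd2 was 0.73 (SE 0.28, adjusted p = 0.330 in limma). Psph, at 4218, 1871 and 1780 in controls and 3845, 3100 and 3701 with doxycycline, had a log2 fold change of 0.55 (adjusted p = 0.355 in limma). Shmt2 read 4597, 2417 and 2077 in controls and 4822, 3412 and 3698 with doxycycline, and was higher in 3 of 3 pairs, as 17.8% of all probe sets were, with a log2 fold change of 0.47 (adjusted p = 0.272 in limma). Mthfd1l, also higher in 3 of 3 pairs, had a log2 fold change of 0.24. Shmt1 was lower in 3 of 3 pairs, as 20.3% of all probe sets were, with a log2 fold change of -0.14. At 24 h 0 of the 6 tested genes were called in limma, beside 0.193% of all probe sets called higher and 0.0129% lower. In the higher direction 4 of the 6 had an unadjusted limma p below 0.05, as had 1203 of all 15521 probe sets. All 7 chaperone genes of the label check, which the study lists as induced from these same arrays, were called higher.

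In experiment 1 at 24 h the enzymes did not follow the chaperone genes. In that pair all 7 chaperone genes were higher with doxycycline, with a median log2 ratio of 1.28, but of Psat1, Psph, Shmt2, Mthfd2 and Mthfd1l 2 were higher, with a median of -0.13. In the pairs of experiments 2 and 3 all 5 were higher, with medians of 0.73 and 1.06. These 5 are the tested genes with positive fold changes at 24 h, so agreement between them is partly fixed by that choice. Shmt1, the tested gene left out, was lower in each of the 3 pairs (log2 ratio -0.09, -0.22 and -0.10). The study lists the 7 chaperone genes as induced at 24 h from these same arrays, so their rise in these pairs is also partly fixed by choice. The share of all probe sets higher in each single pair was not set beside these counts. Leaving the pair of experiment 1 out of the joint 24 h and 48 h fit was a choice made after the values were seen. In that fit 3 of the 6 tested genes were called higher at 24 h, beside 0.522% of all probe sets. These were Mthfd2 with a log2 fold change of 1.17 (adjusted p = 0.0199 in limma), Psat1 with 1.31 (adjusted p = 0.0296) and Psph with 0.89 (adjusted p = 0.0487). Fitted by themselves and without that pair, the 24 h arrays called 0 of the 6.

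Whether the response grew from 24 h to 48 h was tested as an interaction over the 12 arrays. The log2 fold change of Psat1 was larger at 48 h by 0.81 (95% interval -0.11 to 1.72), that of Mthfd2 by 0.62 and that of Psph by 0.60. None of the 6 tested genes passed (adjusted p from 0.75 to 0.889 in limma). The interval for Psat1 holds both no growth and growth of more than 2-fold.

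At 5 days the enzymes had no common direction over the labelled pairs. For Psat1 the arrays labelled control read 4465, 7778 and 1293, and those labelled doxycycline 3532, 5053 and 4005. Both groups reached signals above those of the 48 h doxycycline arrays, and the control of experiment 3 alone stayed near the 48 h controls. The log2 fold change of Psat1 was 0.22 (95% interval -0.996 to 1.44, adjusted p = 0.958 in limma). For Shmt2 the arrays labelled control read 3761, 7302 and 2419, and those labelled doxycycline 3290, 1943 and 4337. The array with shortened RNA, doxycycline 2, held the lowest Shmt2 signal of the 18 arrays, and the fitted log2 fold change was -0.42 (95% interval -1.78 to 0.94). Mthfd2 read 1624, 3585 and 843 against 1641, 2502 and 2518, a log2 fold change of 0.36. Psph read 2962, 6178 and 2069 against 2486, 4319 and 3877, a log2 fold change of 0.05. Experiment 3, whose labels and RNA raised no doubt, gave log2 ratios of 1.63 for Psat1, 1.58 for Mthfd2, 0.91 for Psph, 0.84 for Shmt2 and -0.14 for Shmt1. Those values come from 1 pair and have no test.

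No gene of the 6 was called at 5 days in limma. An unadjusted limma p below 0.05 was found for 0 of the 6, beside 172 of all 15521 probe sets higher and 213 lower. Over all probe sets 0% were called in either direction, the 7 chaperone genes included. The lack of calls at 5 days thus says nothing particular about these enzymes. When the experiment 1 pair had its labels swapped and all 18 arrays were fitted, 1.83% of all probe sets were called higher and 0.908% lower at 5 days, and again 0 of the 6 genes. The log2 fold changes were then 0.45 for Psat1 (adjusted p = 0.517 in limma), 0.35 for Mthfd2, 0.21 for Psph and -0.29 for Shmt2. The smallest adjusted p was then that of Shmt1, at 0.0714 with a log2 fold change of -0.40. With that swap and experiment 2 left out, Psat1 had a log2 fold change of 0.98 (adjusted p = 0.324 in limma), and Shmt2 turned from lower to higher at 0.52 (adjusted p = 0.414). In this fit, chosen after the values were seen, 3 of the 6 had an unadjusted limma p below 0.05 in the higher direction and 0 in the lower. Of all 15521 probe sets, 897 had such a p in the higher direction and 801 in the lower. The change of the effect from 48 h to 5 days, fitted over all 18 arrays as labelled, was -1.41 for Psat1 (95% interval -2.77 to -0.05, adjusted p = 0.479) and passed for none of the 6.

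Over the 24 h and 48 h arrays, Psat1 ran from 931 to 4180 in the 6 controls, a 4.49-fold range, and from 2501 to 3826 with doxycycline, a 1.53-fold range. The control range of Mthfd2 was 2.86-fold and that of Psph 2.84-fold, against 1.39-fold and 1.24-fold with doxycycline. The wide control ranges rested on 1 array, control 24 h of experiment 1. Without it, a choice made after the values were seen, Psat1 ran from 931 to 1218 in the 5 remaining controls, a 1.31-fold range that is narrower than the doxycycline range, and the control ranges of Mthfd2 and Psph were 1.22-fold and 1.27-fold. Shmt1 had narrow ranges in both, 1.29-fold and 1.15-fold. That array held the highest control signal of Psat1, Psph, Shmt2, Mthfd2 and Mthfd1l over these times. In that array the signal of Trib3, a pseudokinase gene that ATF4 and CHOP induce, was 461 against 147 and 99.9 in the other 24 h controls, and that of Atf4 itself was 8607 against 4133 and 4597. Of other ATF4 pathway genes, Ddit3 ran from 746 to 1071 and Asns from 5783 to 8119 over the 24 h controls, both highest in that array. What set that array apart was not tested.

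**Figure D3:**
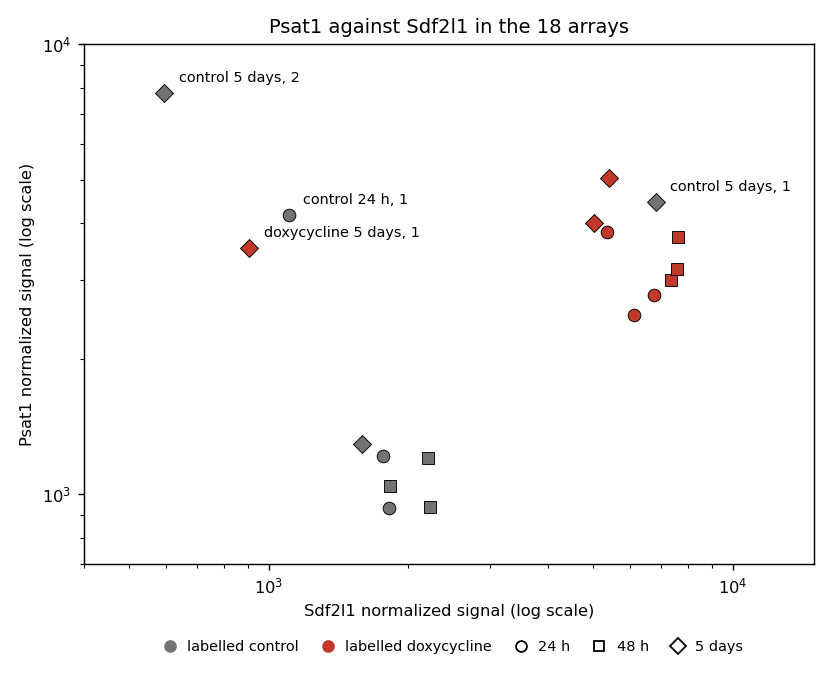
Normalized signal of Psat1 against that of Sdf2l1, an ER chaperone co-factor, in the 18 arrays (arbitrary units, both axes log; color, label; shape, time). The 3 arrays at the upper left combine a high Psat1 with a low Sdf2l1: labelled control 24 h 1 (4180 and 1103), control 5 days 2 (7778 and 595) and doxycycline 5 days 1 (3532 and 907).

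Raised serine enzymes did not always go with a raised Sdf2l1, and the remaining chaperone genes were not compared in this way. Control 5 days 2 had the highest Psat1, Psph, Shmt2, Mthfd2 and Mthfd1l signals of all 18 arrays, with Trib3 at 5053 and Ddit3, the gene of CHOP, at 5630, yet its Sdf2l1 signal of 595 was the lowest of the 18. The array labelled doxycycline 5 days 1, whose label is in doubt, had a Psat1 signal of 3532 with an Sdf2l1 signal of 907. In control 24 h 1 these signals were 4180 and 1103. The other control arrays, apart from the one labelled control 5 days 1, had Psat1 between 931 and 1293 and Sdf2l1 between 1589 and 2229. What set these cultures apart was not tested.

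Across arrays the signals of the 5 genes with positive fold changes at 48 h were correlated. Over the 12 arrays of 24 h and 48 h, Pearson correlations of log2 signal between pairs of Psat1, Psph, Shmt2, Mthfd2 and Mthfd1l ran from 0.874 to 0.986. Those of Shmt1 with each of them ran from -0.604 to -0.524. With the 5-day arrays added, the ranges were 0.646 (Shmt2 with Mthfd1l) to 0.966, and -0.510 to -0.022 (Shmt1 with Shmt2). These arrays share their treatment groups, experiments and normalization, so the correlations are a description. Over all 18 arrays the genes whose log2 signal was most like that of Psat1 were Lmo4 (r = 0.969), Cars1 (0.956), Slc5a6 (0.952), Slc1a4 (0.948) and Chac1 (0.943). Those most like Mthfd2 were Chac1 (r = 0.955), Cars1 (0.954), Slc7a1 (0.953), Nars1 (0.953) and Slc1a4 (0.944). Cars1 and Nars1 encode the cytosolic tRNA ligases for cysteine and asparagine, Chac1 degrades glutathione, and Slc1a4 and Slc7a1 import neutral and cationic amino acids.

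Among the genes around these enzymes in the pathway, 2 amino acid transporters rose at 48 h. Of 60 further genes of folate, glycine, methionine and serine metabolism, serine transport and lower glycolysis, 53 had a probe set and 33 were bright enough to be tested. At 48 h 2 of the 33 were called higher, or 6.06%, beside 2.33% of all probe sets, and 0 lower, beside 1.19%, with a median log2 fold change of 0.06. Both import serine and related neutral amino acids. Slc1a4, or ASCT1, read 272, 239 and 223 in controls and 591, 713 and 698 with doxycycline, a log2 fold change of 1.45 (SE 0.12, adjusted p = 0.0173 in limma). Slc38a1, or SNAT1, read 384, 538 and 465 in controls and 647, 754 and 780 with doxycycline, a log2 fold change of 0.66 (SE 0.09, adjusted p = 0.0347 in limma). Neither group overlapped its controls. The glycine transporter gene Slc6a9 had a log2 fold change of 0.89 that was not called (adjusted p = 0.133 in limma). In experiment 2 it read 322 in the control and 341 with doxycycline.

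**Figure D4:**
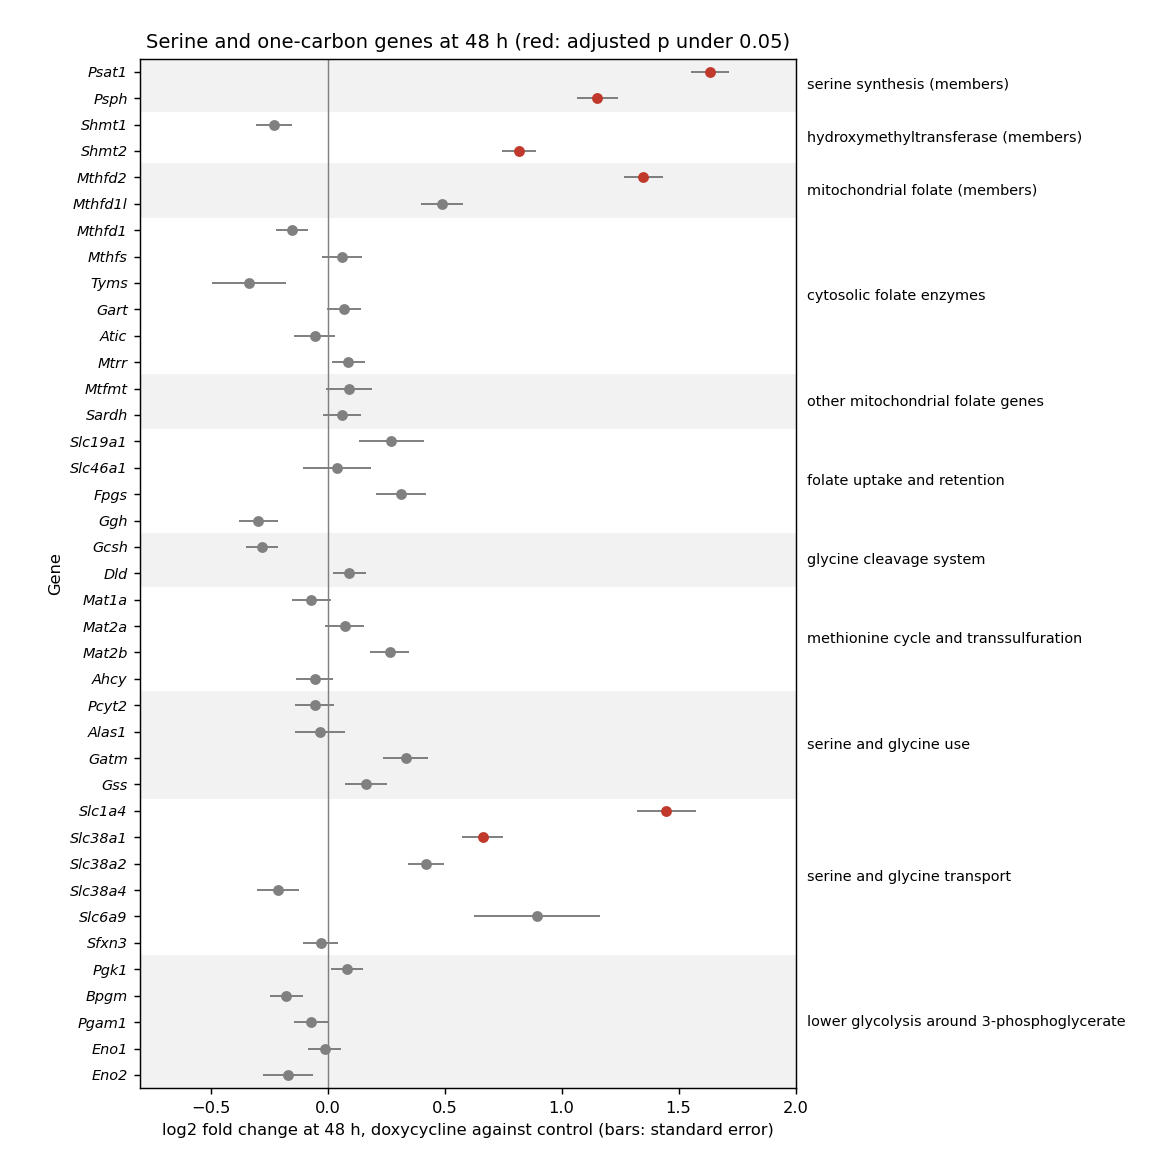
Log2 fold change at 48 h, doxycycline against control, with its standard error, for the 6 tested enzymes and the 33 tested genes around them, grouped by role; red marks an adjusted p under 0.05 in limma. The 6 red points are Psat1 (1.64), Psph (1.15), Shmt2 (0.82), Mthfd2 (1.35), Slc1a4 (1.45) and Slc38a1 (0.66).

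Outside transport 0 of 27 tested genes were called at 48 h, a count that does not stand apart from the 2.33% and 1.19% of all probe sets called higher and lower. This held for the 6 tested cytosolic folate enzymes, where the log2 fold change of largest size was -0.34 for Tyms (thymidylate synthase), and for the 5 tested genes of lower glycolysis around 3-phosphoglycerate, with a median of -0.07. It held for Ggh, which trims folate polyglutamates (-0.30, adjusted p = 0.118), and Fpgs, which adds them (0.32, adjusted p = 0.162). In the glycine cleavage system Gcsh had a log2 fold change of -0.28 (adjusted p = 0.0954), and in the methionine cycle the largest in size was that of Mat2b, at 0.27 (adjusted p = 0.143). At 24 h 0 of the 33 were called. In limma 3 had an unadjusted p below 0.05 in the higher and 2 in the lower direction. Over all 15521 probe sets these numbers were 1203 and 1077. At 5 days 0 of the 33 were called and 0 had such a p, beside 172 of all probe sets higher and 213 lower. Among genes of the ATF4 pathway Atf4, Ddit3, Trib3 and Asns, the asparagine synthetase gene, were all called higher at 48 h, with log2 fold changes of 1.37, 1.76, 3.85 and 0.65, and 0 of the 4 at 24 h.

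The sequence before the gene start was searched in 7 of the 8 genes, those with an entry in the RefSeq promoter set for the rat assembly GRCr8. The search covered the 250 bases before the start, on both strands, in 33465 promoters. TGATGNAA, the core of the C/EBP-ATF composite site that ATF4 binds, was in 0 of the 7 and in 3.4% of all promoters. The ER stress element of chaperone genes was in 0 of the 7 and in 0.0657% of all. CACGTG, the E-box, was in 1 of the 7 and in 5.59% of all. The shorter GATGCAA, which overlaps the composite core, and CCAAT, the NF-Y box, were added after these results were seen. GATGCAA was in 1 of the 7 and in 2.19% of all, and CCAAT in 4 of the 7, Phgdh, Psat1, Shmt1 and Mthfd2, and in 34% of all. A match is only a match of letters, and none of these windows was tested for binding. Psat1 and Mthfd2 are shown as the genes of largest change and Shmt1 as the enzyme that was not called. Capitals mark the motif letters: TTGCATC, which is GATGCAA on the other strand, in Psat1; CCAAT or its reverse ATTGG in Mthfd2; and CACGTG and ATTGG in Shmt1. All 3 are on the minus strand and read 5′ to 3′ along the gene.
Psat1, chr1:222645444-222645473: ccgccctgcctTTGCATCcggagacgcggg
Mthfd2, chr4:117380351-117380600: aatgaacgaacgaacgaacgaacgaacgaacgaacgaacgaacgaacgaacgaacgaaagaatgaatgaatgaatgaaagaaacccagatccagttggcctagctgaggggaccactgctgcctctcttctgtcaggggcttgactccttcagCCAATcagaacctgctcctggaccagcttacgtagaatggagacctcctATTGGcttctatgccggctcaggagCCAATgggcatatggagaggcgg
Shmt1, chr10:45990342-45990591: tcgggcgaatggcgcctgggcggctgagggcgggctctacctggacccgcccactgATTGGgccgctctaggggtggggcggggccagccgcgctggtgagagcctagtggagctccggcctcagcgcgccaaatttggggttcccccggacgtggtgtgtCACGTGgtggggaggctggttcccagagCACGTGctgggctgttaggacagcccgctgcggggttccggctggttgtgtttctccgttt
In Psat1 the match lay 54 to 48 bases before the start. In Mthfd2 the 3 CCAAT matches lay between 97 and 19 bases before it, and in Shmt1 the 2 CACGTG matches began 89 and 61 bases before it.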

How the data were processed

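Total RNA was labelled by the study and hybridised to rat Affymetrix expression arrays. The deposited value table holds 1 linear signal intensity per probe set and array. Their mean, computed here with 2% trimmed at each end, was 500.1 to 500.2 in each array. They look scaled to a common trimmed mean, but the sources used here do not state this step. GeneSpring was used in the study for analysis, and for the program that made the signals the sources used here name none. No array was identical to another. Control probe sets (57) were left out. Intensities were quantile normalized, floored at their 10th percentile (5.99) and log2 transformed, and the 15521 brightest of 31042 probe sets were tested (lowest mean signal 121.5). Gene names came from the platform annotation.

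Each time was fitted separately with limma 3.58.1 in R 4.3.3 (lmFit, eBayes), with the pair as a block, and p-values were Benjamini-Hochberg adjusted over all probe sets tested, with a threshold of 0.05. The study lists ratios per independent experiment, so same numbers were taken as pairs. Deviations from the group means correlated within all 9 pairs (24 h 0.667, 0.484 and 0.662; 48 h 0.578, 0.256 and 0.359; 5 days 0.149, 0.142 and 0.109). With 3 arrays a group, the number of arrays limits the precision, and p-values measure the spread between these cultures of 1 clone. The fits were tested on simulated data, in which those of 24 h and 48 h recovered most of the large and few of the small changes put in, and the 5-day fit recovered none of any size tried.

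The 8 genes and the pathway lists were chosen with earlier results of these data known. The rule for names covered all 8 genes, the called genes and the 2 of largest size in each pathway list, the ATF4, chaperone and marker lists, and the 5 genes most correlated with Psat1 and with Mthfd2. The enzyme pairs compared between compartments and the motifs GATGCAA and CCAAT were chosen after values were seen. Promoter sequences are from RefSeq (GRCr8). Alternatives changed the normalization, floor, filter, block, arrays fitted and test. The mean over several probe sets of a gene was not run, since each gene had 1.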

Additional observations from a re-analysis of the deposited data

How the results depend on the processing

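The 4 genes called higher at 48 h kept that direction in all alternatives run, with log2 fold changes of 1.58 to 1.69 for Psat1, 1.28 to 1.40 for Mthfd2, 1.10 to 1.24 for Psph and 0.80 to 0.85 for Shmt2. The filter, the block, joint fits and the t-test leave these sizes unchanged by design. The number of the 4 genes called was 0 with no filter on dim probe sets and 0 with all 18 arrays fitted together, and ranged from 0 to 2 with 1 replicate left out. Without the replicate block it was again 4, and over all probe sets 275 were called at 48 h and 0 at 24 h, against 546 and 32 with the pair as a block. Over all probe sets at 48 h, 0 were called with no filter, 0 with all 18 arrays, 1610 with the 12 arrays of 24 h and 48 h, 162 by the methods' t-test (3 of the enzymes), and 0 to 36 with 1 replicate left out. At 24 h the numbers were 85 with log2(value + 16), 0 with no filter, 0 with all 18 arrays, 214 with 12 arrays, 0 by the methods' t-test, 0 to 0 with 1 replicate left out, and 91 with the pair of experiment 1 left out of the 12 arrays, where 3 enzymes were called. That last setting was added after seeing the data. At 5 days 425 probe sets were called with the experiment 1 labels exchanged in 18 arrays, and 1 with that exchange and experiment 2 left out, also added after seeing the data. Signs turned at 5 days alone, where the log2 fold changes with 1 replicate left out ran from -0.48 to 0.65 for Psat1, -0.38 to 0.33 for Psph, -0.34 to 0.19 for Shmt1, -1.05 to 0.32 for Shmt2, -0.25 to 0.80 for Mthfd2 and -0.13 to 0.49 for Mthfd1l: without replicate 2, Shmt1 was 0.19 and Shmt2 0.32; without replicate 3, Psat1 was -0.48, Psph -0.38, Mthfd2 -0.25 and Mthfd1l -0.13; and with the exchange and experiment 2 left out, Shmt2 was 0.52. The fits without 1 replicate hold fewer samples, and the cause of the other changes was not tested. Phgdh and Aldh1l2 lay too near the floor of the signal for any comparison.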
